A study of Mus musculus with 4 samples.

Results

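The mitochondrial ribosomal proteins, encoded by the nuclear Mrpl and Mrps genes, were followed in hair follicle bulge stem cells of mice given CSA and of mice given vehicle. Members were taken by symbol, as every gene named Mrpl or Mrps with a number and an optional letter on a row of the array table that names 1 gene alone. This gave 77 of the 19935 genes named on the arrays, on 85 rows, with 48 genes of the large subunit (Mrpl) and 29 of the small subunit (Mrps). A further row names a member together with a second gene and was not analysed here. CSA is not spelled out in the labels; in work on calcineurin it stands for cyclosporine A, which inhibits that phosphatase. The animals, CD-1 males in their second telogen (postnatal day 56), received 100 mg/kg CSA or vehicle by intraperitoneal injection for 3 days. Bulge cells were then sorted on CD34 and alpha6 integrin. Each group had 2 arrays, called biological replicates by the series' design text. How many mice stand behind a sample is not stated in the labels, so p-values measure the spread between these samples only.

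Mitochondria carry their own ribosome, which translates the proteins encoded in mitochondrial DNA, all of them subunits of the respiratory chain and ATP synthase. Its RNA is mitochondrial, but its proteins are made in the cytosol from nuclear genes and imported. Some have a homologue in the bacterial ribosome and others are found only in mitochondria. The nuclear factors NRF1, GABPA (an ETS factor) and YY1 are known as regulators of many genes for mitochondrial proteins. Resting hair follicle stem cells are generally described as relying more on glycolysis than on respiration.

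Sequences just before the start of transcription show how the sites known from such promoters look in 6 members. They include the highest (Mrpl22) and the lowest (Mrpl17) difference described below and were chosen after the values were seen. Each is taken from RefSeq (GRCm38.p6, not the arrays' build), 5′ to 3′ on the gene's strand and ending at the base before the start. Capitals mark a match on either strand to GCGCANGCG (a core of the NRF1 site), CCGGAAG (an ETS core) or AANATGGCG (a YY1 core). Mrpl22 lies at chr11:58171604-58171663 on the plus strand, Mrpl17 at chr7:105811088-105811147 on the minus strand, Mrpl43 at chr19:45006443-45006502 on the minus strand, Mrpl36 at chr13:73330949-73331008 on the plus strand, Mrps27 at chr13:99344726-99344785 on the plus strand and Mrps18a at chr17:46110944-46111003 on the plus strand.
Mrpl22: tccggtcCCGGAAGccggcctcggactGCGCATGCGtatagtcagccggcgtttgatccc
Mrpl17: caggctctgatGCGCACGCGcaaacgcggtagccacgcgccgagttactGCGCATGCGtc
Mrpl43: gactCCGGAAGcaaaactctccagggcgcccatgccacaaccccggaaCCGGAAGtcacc
Mrpl36: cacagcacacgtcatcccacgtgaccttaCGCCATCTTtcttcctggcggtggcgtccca
Mrps27: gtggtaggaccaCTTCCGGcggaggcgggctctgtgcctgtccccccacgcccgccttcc
Mrps18a: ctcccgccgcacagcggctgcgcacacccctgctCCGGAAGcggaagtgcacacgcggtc

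RefSeq windows of 250 bases before and 50 after the start were at hand for 68 members, of which 42 (61.76%) held at least 1 of the 3 motifs. Over the 15612 measured genes with a window the share was 24.15%, and over all 27025 genes with one it was 17.21%. The ETS core was in 25 members (36.76%, against 13.61% of measured genes), the NRF1 core in 16 (23.53%, against 10.49%) and the YY1 core in 11 (16.18%, against 3.86%). Matches of different motifs did not overlap in any member's window. The 42 members with a motif had a median CSA minus vehicle difference of 0.18 on the log2 scale and the 26 without one had 0.15. The single motifs did not share a direction. Members with and without the core had medians of 0.20 and 0.15 for ETS, 0.10 and 0.17 for NRF1, and 0.15 and 0.16 for YY1. Mrpl36, with a YY1 core, differed by 0.68 ± 0.60 (-0.13 without CSA replicate 2), and Mrpl43, with a pair of ETS cores, by 0.16 ± 0.20. A match is a description of the letters and not a shown binding site.

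The values are log values, taken as log2, that lie around 0 in each row and so read as centred on a baseline, which the sources used here do not describe. A value tells how far a gene stood above or below that baseline, which is no measure of its abundance. The median over all rows lay between -0.02 and 0.06 on the 4 arrays. The 15 bulge markers had medians of 0.31 and 0.91 in CSA, against 0.32 and 0.98 in vehicle. Without overlap, 4 of them were lower in CSA and 0 higher, where 15.4% of all genes were lower and 10.9% higher. The 4 were Cd34, on which the cells were sorted (-1.47 ± 0.67), Cd200 (-0.80 ± 0.35), Postn (-0.79 ± 0.18) and Krt5 (-0.35 ± 0.20). None passed limma's test (adjusted p 0.999). Cd34 had 1.75 on CSA replicate 1 and 3.60 on CSA replicate 2, against 4.05 and 4.25 in vehicle, so CSA replicate 1 was far below the other arrays. Other marker lists held genes without overlap too. Lower without overlap were 5 of 12 markers of differentiated epidermis, 4 of 11 of fibroblasts and 3 of 10 of endothelial cells. So were 2 of 10 of immune cells and 0 of 8 of melanocytes, while 1 fibroblast and 1 immune marker were higher. What part the bulge markers had in the members' values was not tested. On centred values this cannot show presence or absence of a cell type. Differences below are CSA minus vehicle on the log2 scale, and a value after ± is limma's moderated standard error with 2 arrays per group.

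Taken over the 77 members, CSA stood slightly above vehicle, but 1 CSA array lay below both vehicle arrays and the other above them. The members' median was -0.33 on CSA replicate 1 and 0.19 on CSA replicate 2, against -0.23 on vehicle replicate 1 and -0.13 on vehicle replicate 2. The difference was positive for 54 of 77 members (70.1%), where 41.1% of all genes had a positive one, and its median was 0.15 against -0.04 for all genes. CSA replicate 2 held the highest value of the 4 arrays for 54 members (70.1%), against 20.5% of all genes. The lowest value was on CSA replicate 1 for 27 members (35.1%, against 22.7% of all genes) and on CSA replicate 2 for 1 (1.3%, against 32.8%). It was on vehicle replicate 1 for 29 (37.7%, against 21.2%) and on vehicle replicate 2 for 20 (26.0%, against 23.3%).

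**Figure D1:**
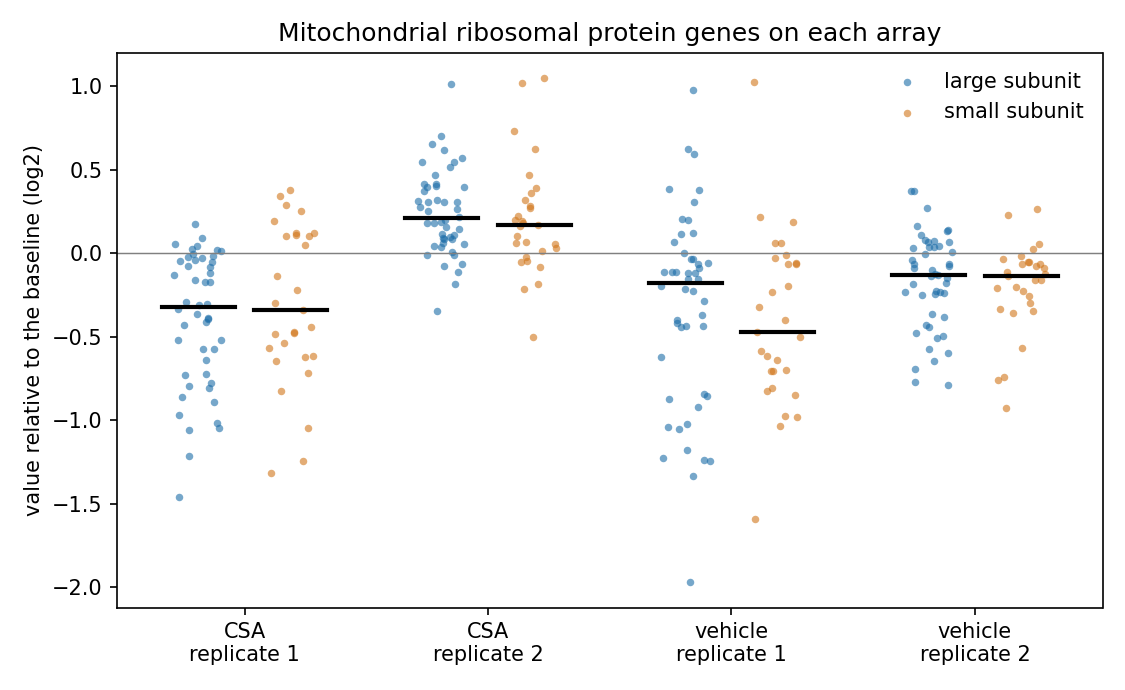
Each point is 1 member gene on 1 array, as its log2 value relative to the baseline, with the large subunit left and the small subunit right within an array and a black bar at each median. The medians of both subunits lie above 0 on CSA replicate 2 and below 0 on the other 3 arrays.

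None of the members passed the test. At an adjusted p under 0.05, 0 of 19935 genes passed in limma (0% of genes), 0 of them members, and the smallest limma adjusted p of a member was 0.999. Of the 77 members 2, Mrpl23 and Mrps5, had an unadjusted p under 0.05 in limma, as did 2.83% of all genes. With row means 1 member and 554 genes had one. Without moderation an ordinary fit gave 0 genes after adjustment, and 540 genes with 1 member at an unadjusted p under 0.05. The gap between the 2 CSA arrays had a median of 0.54 over the members, that between the vehicle arrays 0.46, and the absolute difference between the groups 0.24. Over all genes these medians were 0.23, 0.27 and 0.16. The difference was larger than both gaps for 10 of the 77 members and for 2909 of the 19935 genes, a slightly larger share.

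The CSA arrays of 15 members stood above both vehicle arrays (19.5%, against 10.9% of all genes), and those of 1 member stood below (1.3%, against 15.4%). Of the 15, Mrpl22, Mrpl23, Mrpl37, Mrps18b and Mrps30 were also at least 1.5-fold apart (5 members, 6.49% of members, against 3.91% of all genes). No member was 1.5-fold lower without overlap, where 1.99% of all genes were. The median of all members turned negative when CSA replicate 2 was left out (-0.06, with 31 of 77 positive), and was 0.46 with 70 of 77 positive without CSA replicate 1. Leaving out vehicle replicate 1 gave 0.13 and leaving out vehicle replicate 2 gave 0.27. In all, 24 members were higher and 2 (Mrpl10 and Mrpl38) lower in CSA in each of the 4 fits with 1 array left out. The share of all genes doing so was not worked out.

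**Figure D2:**
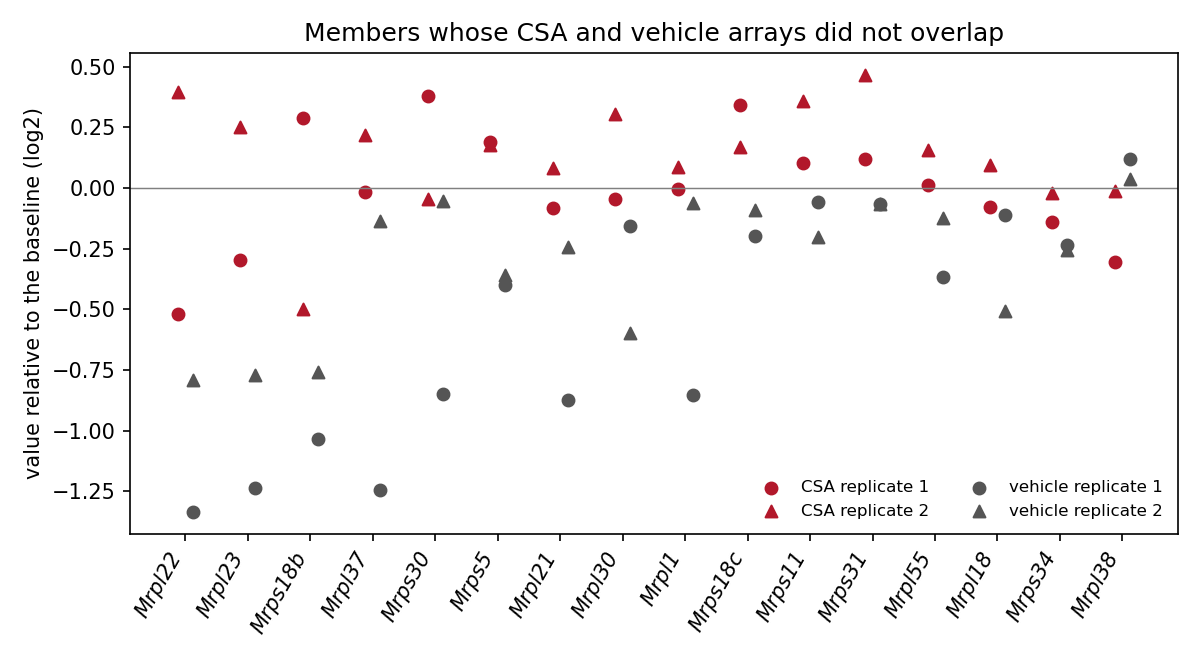
The 16 members whose groups did not overlap, ordered from the highest to the lowest difference, with CSA arrays in red left of vehicle arrays in grey (circles replicate 1, triangles replicate 2) on the log2 scale relative to the baseline. CSA lies above vehicle in 15 of them and below in Mrpl38.

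Proteins around the exit of the peptide tunnel were listed by their place in the ribosome, with earlier results of these data known. They held the highest and the lowest difference of the large subunit, which after such a choice is no result about the exit itself. Mrpl22, whose bacterial homologue lines the tunnel, had -0.52 and 0.40 in CSA, against -1.34 and -0.79 in vehicle. CSA minus vehicle was 1.00 ± 0.40, a 2.00-fold difference, and its groups did not overlap. Mrpl23, beside it at the exit, had -0.30 and 0.25 in CSA, against -1.24 and -0.77 in vehicle, a difference of 0.98 ± 0.29 (limma unadjusted p = 0.0271). Both rows of Mrpl23 gave nearly the same values, with differences of 0.98 and 1.00. Mrpl24, of the same rim, had -0.04 and 0.27 in CSA, against -0.62 and 0.04 in vehicle, and its groups overlapped. Mrpl45, which lies at the exit near the inner membrane, differed by 0.44 ± 0.45 and by -0.15 without vehicle replicate 1.

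Mrpl17, also at the tunnel exit, stood apart in the other direction on 1 array. It had -1.46 and 0.30 in CSA, against 0.00 and -0.06 in vehicle, so that 1 CSA array was the lowest and the other the highest of the 4 (difference -0.55 ± 0.63). Without CSA replicate 1 its difference was 0.33. Both Mrpl17 and Mrpl22, at opposite ends of the order, hold NRF1 and ETS cores in their windows. Mrpl47 went both ways by row: 1 row gave -0.13 and its other row 0.32.

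The stalk proteins, which flank the sites where tRNAs and elongation factors meet the large subunit, had differences between -0.12 and 0.50. Mrpl1 had -0.0038 and 0.09 in CSA, against -0.85 and -0.06 in vehicle (0.50 ± 0.32). The groups did not overlap, and without vehicle replicate 1 the difference was 0.10. Mrpl12, which also binds the mitochondrial RNA polymerase, had 0.02 and -0.08 in CSA, against -0.21 and -0.07 in vehicle (0.12 ± 0.16). Mrpl10 and Mrpl11, at the base of the factor-binding stalk, differed by -0.12 ± 0.18 and 0.15 ± 0.19. Among members reaching towards the peptidyl transferase centre, Mrpl27 had -0.03 and 0.41 in CSA, against -1.04 and 0.03 in vehicle. This gave 0.70 ± 0.43, and 0.16 without vehicle replicate 1. Mrpl2, Mrpl3 and Mrpl16 of the same core lay between -0.01 and 0.18.

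In the central protuberance, which faces the head of the small subunit, 3 of 6 listed members were higher and 3 lower in CSA. Mrpl38 was the 1 member lower in CSA without overlap, with -0.31 and -0.01 in CSA, against 0.12 and 0.04 in vehicle (-0.24 ± 0.19). Mrpl55 had 0.01 and 0.16 in CSA, against -0.37 and -0.12 in vehicle (0.33 ± 0.18), and Mrpl18 had -0.08 and 0.10 in CSA, against -0.11 and -0.51 in vehicle (0.32 ± 0.21). In Mrpl18 the nearest CSA and vehicle arrays were almost level. Mrpl48 differed by 0.58 ± 0.44 with overlapping groups, and Mrpl40 and Mrpl46 by -0.02 ± 0.42 and -0.05 ± 0.30.

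3 other large-subunit members did not overlap. Mrpl37, a protein without a bacterial homologue, had -0.02 and 0.22 in CSA, against -1.24 and -0.14 in vehicle (0.79 ± 0.42, and 0.24 without vehicle replicate 1). Mrpl21 had -0.08 and 0.08 in CSA, against -0.87 and -0.24 in vehicle (0.56 ± 0.27). Mrpl30 had -0.05 and 0.30 in CSA, against -0.15 and -0.60 in vehicle (0.50 ± 0.25). In Mrpl37 and Mrpl21 vehicle replicate 1 was far below the other 3 arrays, while in Mrpl30 vehicle replicate 2 was the lowest.

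Members with a further known role lay near 0 or split by array. Mrpl32, which the m-AAA protease cuts before it joins the ribosome, differed by 0.09 ± 0.18. Afg3l2, a subunit of that protease, had 0.16 and 0.12 in CSA, against -0.43 and -0.12 in vehicle (0.41 ± 0.19). Mrpl58, a hydrolase that frees stalled peptides, had -0.78 and 0.55 in CSA, against -0.04 and 0.37 in vehicle (-0.28 ± 0.50, and 0.38 without CSA replicate 1). Mrpl44, in which variants are known to cause cardiomyopathy in humans, had -0.12 and 0.47 in CSA, against 0.12 and -0.43 in vehicle. Mrpl41 and Mrpl51 had 2 rows each: those of Mrpl41 gave -0.18 and -0.21, and those of Mrpl51 gave 0.29 and -0.30, so the sign for Mrpl51 depends on the row.

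**Figure D3:**
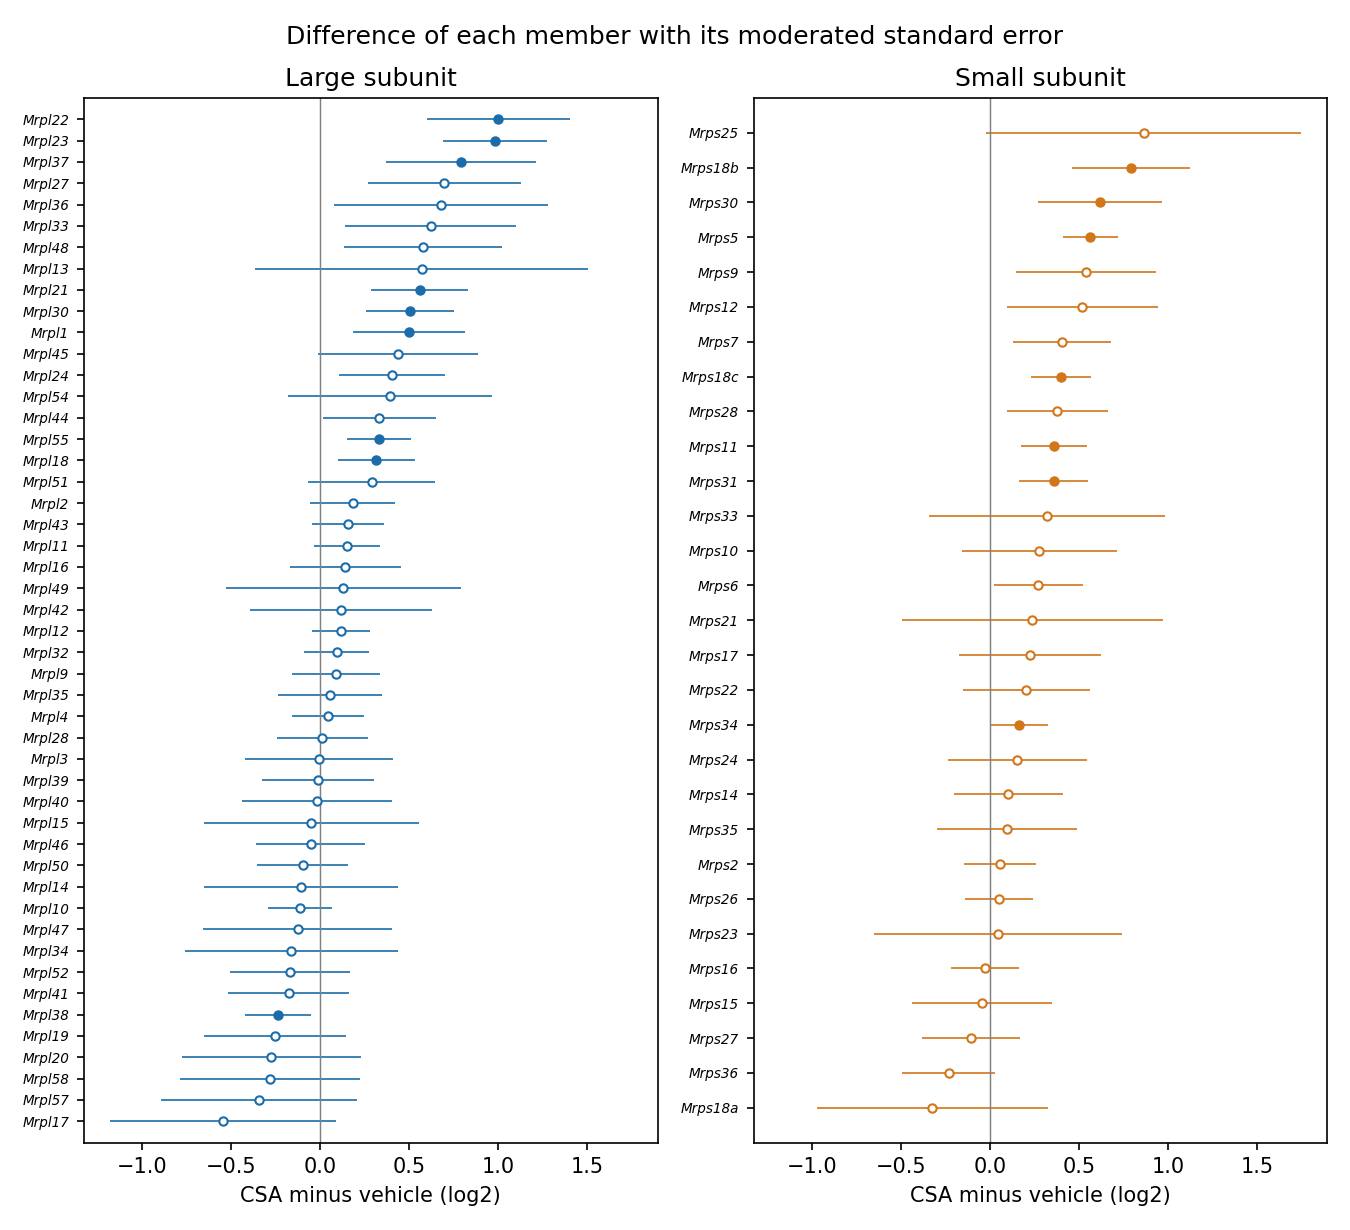
The CSA minus vehicle difference (log2) of each member of the large (left) and small (right) subunit, ordered by size, with bars of 1 moderated standard error and filled points where CSA and vehicle arrays did not overlap. Differences run between -0.55 (Mrpl17) and 1.00 (Mrpl22), and 24 of the 29 small-subunit members lie above 0.

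In the small subunit, Mrps5, which lines the channel where mRNA enters, had the smallest standard error of the members named here. It had 0.19 and 0.18 in CSA, against -0.40 and -0.36 in vehicle, a difference of 0.56 ± 0.15 (limma unadjusted p = 0.0202, adjusted p = 0.999). On this row, which stands for the gene, the difference stayed between 0.54 and 0.58 with any 1 array left out. The second row of Mrps5 gave 0.42, with 0.03 and 0.16 in CSA, against -0.03 and -0.61 in vehicle. On that row vehicle replicate 2 lay far below the other arrays, and leaving out arrays was not worked out for it. With row means Mrps5 differed by 0.49. Mrps12, of the decoding centre, had -0.82 and 0.32 in CSA, against -0.81 and -0.74 in vehicle, so that CSA replicate 2 alone stood apart. Its difference was 0.52 ± 0.43 and -0.05 without CSA replicate 2. Mrps24, on the mRNA channel as well, differed by 0.15 ± 0.39.

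Mouse has 3 relatives of bacterial protein S18, and they did not share a direction. Mrps18b had 0.29 and -0.50 in CSA, against -1.04 and -0.76 in vehicle (0.79 ± 0.33). Mrps18c had 0.34 and 0.17 in CSA, against -0.20 and -0.09 in vehicle (0.40 ± 0.17). Neither pair of groups overlapped. Mrps18a had -1.32 and 0.28 in CSA, against -0.61 and 0.23 in vehicle, with overlapping groups, and differed by -0.32 ± 0.65 (0.48 without CSA replicate 1).

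Among the other small-subunit members 4 did not overlap. Mrps30 had 0.38 and -0.04 in CSA, against -0.85 and -0.05 in vehicle (0.62 ± 0.35). CSA replicate 2 and vehicle replicate 2 were almost level there, and the difference without vehicle replicate 1 was 0.22. Mrps11, in the platform beside the mRNA exit, had 0.10 and 0.36 in CSA, against -0.06 and -0.20 in vehicle (0.36 ± 0.18). Mrps31 had 0.12 and 0.47 in CSA, against -0.07 and -0.07 in vehicle (0.36 ± 0.19), and Mrps34 had -0.14 and -0.02 in CSA, against -0.23 and -0.26 in vehicle (0.17 ± 0.16). Of the head proteins Mrps7, Mrps9, Mrps10 and Mrps14, 4 of 4 were higher in CSA, by 0.10 to 0.54, with overlapping groups in each.

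The other small-subunit members overlapped. Mrps25 had the highest difference of the subunit and the widest spread named here, with -1.05 and 1.02 in CSA, against -1.59 and -0.16 in vehicle (0.86 ± 0.89, and -0.17 without CSA replicate 2). Mrps22, in which variants are known to cause respiratory chain deficiency in humans, differed by 0.20 ± 0.36, and by -0.20 without vehicle replicate 1. Mrps16 and the pentatricopeptide protein gene Mrps27 differed by -0.03 ± 0.19 and -0.11 ± 0.27. Mrps33 had 0.32 and 0.23 on its rows. The rows of Mrps36, whose product is now known mainly as part of the 2-oxoglutarate dehydrogenase complex, gave -0.23 and -0.26. Without CSA replicate 1 its difference was 0.07.

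The small subunit lay above the large subunit in the difference between CSA and vehicle, with a gap between the subunits that was widest on 1 array. The median difference was 0.24 for the small subunit (24 of 29 positive) and 0.12 for the large subunit (30 of 48 positive). Large minus small, the median value on each array was 0.01 on CSA replicate 1 and 0.04 on CSA replicate 2, against 0.30 on vehicle replicate 1 and 0.01 on vehicle replicate 2. On vehicle replicate 1 the large-subunit median was -0.18 and the small-subunit median -0.47. The gap between the median differences was -0.12 with all arrays and 0.01 without vehicle replicate 1. Structures of the ribosome place Mrps30 and Mrps18a in the large subunit despite their names. With both moved there and Mrps36 left out, the gap was -0.14.

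Vehicle replicate 1 also had the highest value of the 4 arrays for 10 of 12 markers of differentiated epidermis, 8 of 11 of fibroblasts, 9 of 10 of endothelial cells and 9 of 10 of immune cells, and for 1 of 8 of melanocytes. Of the 15 bulge markers that array was the highest for 1 and the lowest for 5, and CSA replicate 1 was the lowest for 9. Over all genes vehicle replicate 1 was the highest for 43.2% and the lowest for 21.2%, and CSA replicate 1 was the lowest for 22.7%. The medians of the epidermal list were -0.54 and -0.16 in CSA, against 0.43 and -0.39 in vehicle. Those of the fibroblast, endothelial and immune lists lay between -0.21 and 0.02 in CSA and between -0.18 and 0.24 in vehicle. The part of these markers in the members' values was not tested, and in bulk samples a changed share of cells and changed RNA per cell cannot be told apart.

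**Figure D4:**
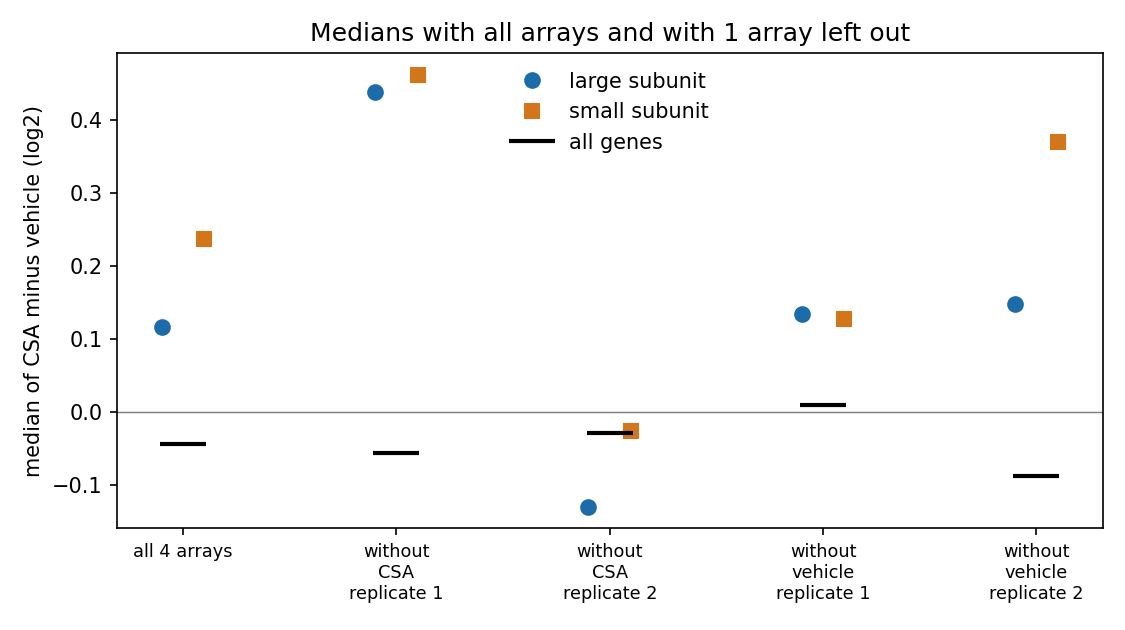
Median CSA minus vehicle difference (log2) of the large subunit (circles), the small subunit (squares) and all genes (black bars), with all 4 arrays and with each array left out. Both subunits are near 0.45 without CSA replicate 1 (0.44 and 0.46) and below 0 without CSA replicate 2 (-0.13 and -0.03).

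Members were also split by origin, a comparison with no test. The split follows lists made from their systematic names, which mark proteins as mitochondria-specific or as shared with bacteria. These names count Mrps18a and Mrps18b, relatives of S18, among the first. Mrpl55, Mrps28 and Mrps36 were put in neither list and are left out of the counts below. Large-subunit members with a mitochondria-specific name had medians of -0.42 and 0.29 in CSA, against -0.09 and -0.09 in vehicle (18 genes). Those with a name shared with bacteria had -0.16 and 0.18 in CSA, against -0.29 and -0.18 in vehicle (29 genes). CSA replicate 1 was below CSA replicate 2 in 18 of the 18 mitochondria-specific genes and in 25 of the 29 others, and below in 43.5% of all genes. CSA minus vehicle was positive for 9 of the 18 and for 20 of the 29. In the small subunit it was positive for 10 of 12 members with a mitochondria-specific name and 13 of 15 with a bacterial one.

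2 members, Mrpl46 and Mrps11, are direct neighbours and start in opposite directions, with only 41 bases between their starts at chr7:78783090-78783130 (RefSeq GRCm38.p6). That stretch is given on the plus strand, the strand of Mrps11, and holds none of the 3 motifs.
Mrpl46 and Mrps11: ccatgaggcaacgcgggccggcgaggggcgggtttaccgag
Mrps11 was higher in CSA without overlap (0.36 ± 0.18), while Mrpl46 had -0.43 and 0.32 in CSA, against -0.07 and 0.07 in vehicle (-0.05 ± 0.30). Mrpl14 and Mrps18a have 2 protein-coding genes between them, and their windows begin at chr17:45686099 and chr17:46110754. Both had their lowest value on CSA replicate 1 (-1.21 and -1.32), as 27 of the 77 members did (35.1%).

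Other genes of ribosomes and mitochondrial gene expression were read from 8 lists by function, and 0 of their members passed (smallest limma adjusted p 0.999 in each). Of 5 ribosomal subunits without an Mrp symbol 4 were measured and 3 were higher in CSA. Chchd1 of the small subunit had -0.12 and 0.58 in CSA, against -0.22 and -0.25 in vehicle (0.46 ± 0.29), and Dap3, its GTP-binding subunit, differed by -0.34 ± 0.35. Of 17 translation and mRNA factors 11 were higher (median 0.04). Mrrf, the ribosome recycling factor, had -0.41 and 0.98 in CSA, against -1.59 and -0.23 in vehicle (1.20 ± 0.70), and Slirp, which stabilises mitochondrial mRNA, had -0.17 and 0.17 in CSA, against -0.59 and -0.50 in vehicle (0.54 ± 0.20). Of 29 assembly factors 15 were higher and 14 lower (median 0.02). Without overlap, 4 of the 29 were higher and 6 lower, where 10.9% of all genes were higher and 15.4% lower. Eral1, the chaperone of the small ribosomal RNA, had 0.68 and 0.07 in CSA, against -1.03 and -0.07 in vehicle (0.92 ± 0.43). Without vehicle replicate 1 the difference of Eral1 was 0.44.

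Of 16 mitochondrial aminoacyl-tRNA synthetases 5 were higher and 11 lower in CSA (median -0.09). Sars2, which charges serine tRNA, had -0.44 and -0.59 in CSA, against 0.09 and 0.18 in vehicle (-0.65 ± 0.17), and Yars2, for tyrosine, differed by 0.82 ± 0.49 with overlap. Of 13 genes for the upkeep and transcription of mitochondrial DNA 8 were higher (median 0.24). Twnk, the mitochondrial DNA helicase, had -0.10 and 0.19 in CSA, against -0.73 and -0.47 in vehicle (0.64 ± 0.20), and the transcription factor gene Tfb2m differed by 0.34 ± 0.19. Among 11 regulators Gabpa had 0.61 and 0.19 in CSA, against -0.56 and -0.02 in vehicle (0.69 ± 0.28). Nrf1 and Yy1 differed by 0.18 ± 0.29 and 0.19 ± 0.23 with overlapping groups, and the coactivator gene Ppargc1b was lower without overlap (-0.42 ± 0.24).

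Of the 13 proteins that this ribosome makes, 2 had rows of their own. ND3, of complex I, had 0.03 and -0.44 in CSA, against 0.10 and 0.06 in vehicle (-0.29 ± 0.22), and COX2, of complex IV, had 0.25 and -0.17 in CSA, against 0.32 and 0.22 in vehicle (-0.23 ± 0.21). Both were lowest on CSA replicate 2, as were 32.8% of all genes, while most members were highest on that array. The 59 cytosolic ribosomal protein genes varied less, with medians between 0.00 and -0.04 on the 4 arrays, a median gap of 0.10 between the CSA arrays and 33 higher in CSA (median difference 0.03). Without overlap, 17 of the 59 were higher in CSA and 3 lower, where 10.9% of all genes were higher and 15.4% lower. The share higher was larger than that of the 15 of 77 members, but the differences were smaller. The median absolute difference of the 59 was 0.07, with a median standard error of 0.17, against 0.24 and 0.34 for the members. Among the 59, the largest differences by moderated t were those of the paralogues Rps4l (0.86 ± 0.22) and Rps27l (0.58 ± 0.25). The size for Rps4l depends on the row, as with row means it differed by 0.57.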

How the data were processed

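RNA from 4 sorted samples was hybridised to one-colour arrays. By the labels' protocols, 20 ng of total RNA was amplified in 1 round and biotin-labelled. The deposited series matrix holds log values of an unnamed base, taken as log2, for 28815 rows, which from their spread around 0 read as centred on a baseline that was not settled (row mean 0 within 1e-04 in 0.083% of rows, row median 0 in 11.376%). The sources used here name no array software, background correction or normalization. The submitters' processing notes name mm8. Signal over background was not analysed here, and precision is limited by having 4 arrays.

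Rows were named through the platform annotation (21780 with 1 gene, 1605 with several, left out, 5430 not listed). A gene with several rows stood by the row with the highest mean. All 77 members' identifiers matched RefSeq's table (GRCm38.p6). CSA minus vehicle was fitted with limma 3.58.1 in R 4.3.3 (lmFit, eBayes, two-sided, Benjamini-Hochberg over 19935 genes, no filter, no block). On simulated arrays with 200 of 19935 genes changed, limma recovered 0.2% of changes of 1, 26.9% of 2, 51.5% of 3 and 65.8% of 4 (log2). The simulated noise was normal and independent between genes and arrays, with each gene's spread estimated from its own arrays. The rates hold for that setting and may differ in the real data. Members, lists and places in the ribosome were chosen with earlier results of these data known. Genes named are the non-overlapping members, members with several rows, a set with known roles and, per list, those with the largest moderated t; other members are named for their place or after their values were seen. Alternatives were quantile normalization, arrays centred on their medians, a mean-variance trend, row means, a filter at the 25th percentile, a replicate block, an unmoderated fit, subunits by structure and each array left out.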

Additional observations from a re-analysis of the deposited data

How the results depend on the processing

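The 0 members and 0 genes called by limma stayed at 0 under each alternative. Between 51 and 58 of 77 members were higher in CSA with other scalings, row means, a trend, the block or without a vehicle array. The share over all genes moved under these settings too, between 38.4% without vehicle replicate 2 and 52.4% without vehicle replicate 1. In the latter fit 66.2% of members were higher. Without CSA replicate 1 the shares were 90.9% of members and 41.5% of all genes, and without CSA replicate 2 they were 40.3% and 44.0%. With the filter at the 25th percentile, which removes the genes lowest relative to the baseline and left 23 members, 13 were higher, the large minus small gap was -0.33 and 0 were 1.5-fold apart without overlap. Leaving out 1 array in turn gave 31 to 70 members higher in CSA. The median was then -0.058 to 0.46 over all members and -0.13 to 0.44 over the large subunit. In these fits 6 to 26 members were 1.5-fold apart without overlap, a count that grows by construction when 1 array faces 2. Its share over all genes was not worked out for these fits, so the count cannot be set against that of all genes. With the replicate number as a block the median stayed 0.15, 0 genes were called (smallest limma adjusted p 0.866), and 5 members and 914 genes had an unadjusted p under 0.05. Same-numbered arrays deviated together (r = 0.24 over 19935 genes), but only 2 pairs exist and the labels tie no samples, so the number is only shared. No share over all genes was worked out for keeping the sign with each array left out, and 26 of the 77 members kept theirs. Of the 31 members named by the rule given above 12 did not: Mrpl32 (-0.044 to 0.23), Mrpl41 (-0.60 to 0.24), Mrpl45 (-0.15 to 1.02), Mrpl47 (-0.80 to 0.55), Mrpl51 (-0.18 to 0.75), Mrps12 (-0.051 to 1.09), Mrps16 (-0.18 to 0.13), Mrps18a (-1.12 to 0.48), Mrps22 (-0.20 to 0.61), Mrps27 (-0.41 to 0.19), Mrps33 (-0.52 to 1.17) and Mrps36 (-0.53 to 0.066). With row means Mrpl47 turned to 0.10 and Mrpl51 to -0.0082; with quantile normalization Mrps16 turned to 0.041 and Mrps27 to 0.025, and with arrays centred on their medians Mrps16 turned to 0.0023. Of the members named for other reasons, Mrpl2, Mrpl3, Mrpl11, Mrpl14, Mrpl16, Mrpl17, Mrpl36, Mrpl40, Mrpl43, Mrpl46, Mrpl58, Mrps10, Mrps14, Mrps24 and Mrps25 changed sign without 1 array too. The causes were not tested. The unknown baseline and the lack of signal over background limit all values.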
